A study of Gallus gallus with 2 samples.

Results

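Ephrins, Eph receptors, semaphorins, plexins, neuropilins, netrins and netrin receptors were followed in the chick forebrain after inhibition of Notch signalling. These genes were taken by their names: probes whose symbol begins with EPHA, EPHB, EFNA, EFNB, SEMA, PLXN, UNC5 or NTN, or is NRP1, NRP2, DCC or NEO1. Slits and Robos, also guidance molecules, are outside this rule. The paper reports SLIT1 and ROBO2 as upregulated after Notch inhibition. The rule gave 43 genes on 92 probes, of 29629 genes or accessions on 43603 probes. The 19882 probes without a symbol were counted under their accession, so that the shares of all genes given below include such accessions. Each gene was read from its brightest probe. A gene was tested if all 4 arrays of a condition showed it well above background, which left 38 genes on 83 probes, while EPHA6, NTN4, SEMA6B, SEMA6D and UNC5A were too dim. UNC50 was included through its first letters only: it is a membrane protein needed for acetylcholine receptor assembly in Caenorhabditis elegans, not a netrin receptor.

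The treated group was made of Isa Brown chick embryos placed in roller culture at Hamburger and Hamilton stage (HH) 10 and kept for 16 hours in medium with 40 µM DAPT, until about HH13. DAPT inhibits γ-secretase, the protease that releases the active part of the Notch receptor. The control group was cultured for the same time with DMSO, the solvent, alone. From each culture 5 prosencephalons were pooled, and 4 pools per condition were hybridized, each to its own single-colour Agilent array. Slide 1 carried arrays 1 and 2 of both conditions, and slide 2 carried arrays 3 and 4. The dissected domain was everything in front of the midbrain, so that neural tube, optic vesicles and the tissue around them were mixed. Fewer cells of a type and less RNA per cell cannot be told apart in such pools. Values below are on the log2 scale after subtraction of the array median, so that 0 is the median probe. They can be compared between arrays for a probe, but not between probes.

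Guidance molecules steer growing axons and migrating cells by attraction or repulsion at the growth cone. Ephrins are membrane-bound ligands: the A class is held by a lipid anchor and binds mostly EphA receptor kinases, and the B class crosses the membrane and binds mostly EphB receptors, with signals in both directions. Semaphorins act through plexins, and the secreted class 3 semaphorins mostly need neuropilins as co-receptors. Netrins attract through the DCC and neogenin receptors and repel through the UNC5 receptors. In the early forebrain the same families also take part in drawing boundaries, shaping the eye and guiding vessels, and the first axon tracts are only beginning to form at HH13.

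The treatment was visible in the targets of Notch. HES5, a repressor switched on by Notch, averaged -3.48 ± 1.3 on DAPT arrays and 2.35 ± 0.27 on DMSO arrays (SD, n = 4 each), a log2 fold change of -5.83 (adjusted p = 0.00350, limma), and was above background on 1 of the 4 DAPT arrays, so that the size of its fold is not exact. HEY1, a relative of HES5, averaged 2.14 ± 0.10 on DAPT arrays and 3.66 ± 0.30 on DMSO arrays (adjusted p = 0.0186, limma). The median signal of an array was 176.6 to 352.1 intensity units, and 67.8% to 80.8% of probes were well above background. The slides stood apart: the first principal component of all tested probes held 59.5% of the variance and separated them. In all, 33 probes were higher and 12 lower with DAPT at an adjusted p under 0.05. With slide as a block these counts were 103 and 39, and when the array number was the block they were 125 and 70.

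No guidance gene of this set was among the genes that passed the test between DAPT and DMSO. Of the 38 tested, 0 had an adjusted p under 0.05 in limma, where 0.144% of all 19505 tested genes did. The smallest adjusted p of a guidance gene was 1.0, a value that all 38 shared. It was 0.214 with slide as a block and 0.175 with a block for the array number, both for SEMA3G. At those settings 0.492% and 0.697% of all genes were called. Before adjustment 2 guidance genes, SEMA3G and PLXNA4B, had a p under 0.05 (5.26% of 38, against 2.55% of all genes). With slide as a block there were 4 (10.5%, against 6.59%). These were SEMA3G, PLXNA4B, EPHA5 and SEMA7A, with unadjusted p of 0.0018, 0.017, 0.024 and 0.044 (limma, slide as a block). The 38 log2 fold changes had a median of -0.016 and those of all genes -0.010, and their median sizes were 0.11 for both. A value above 0 was found for 15 guidance genes and below 0 for 23, where 47.4% of all genes lay above 0. Of the 38, 4 differed by at least 1.3-fold (10.5%, against 8.89% of all genes): PLXNA4B and SEMA7A with higher values in DAPT (5.26%, against 4.18% of all genes), and SEMA3G and SEMA5A with lower values (5.26%, against 4.71%).

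**Figure D1:**
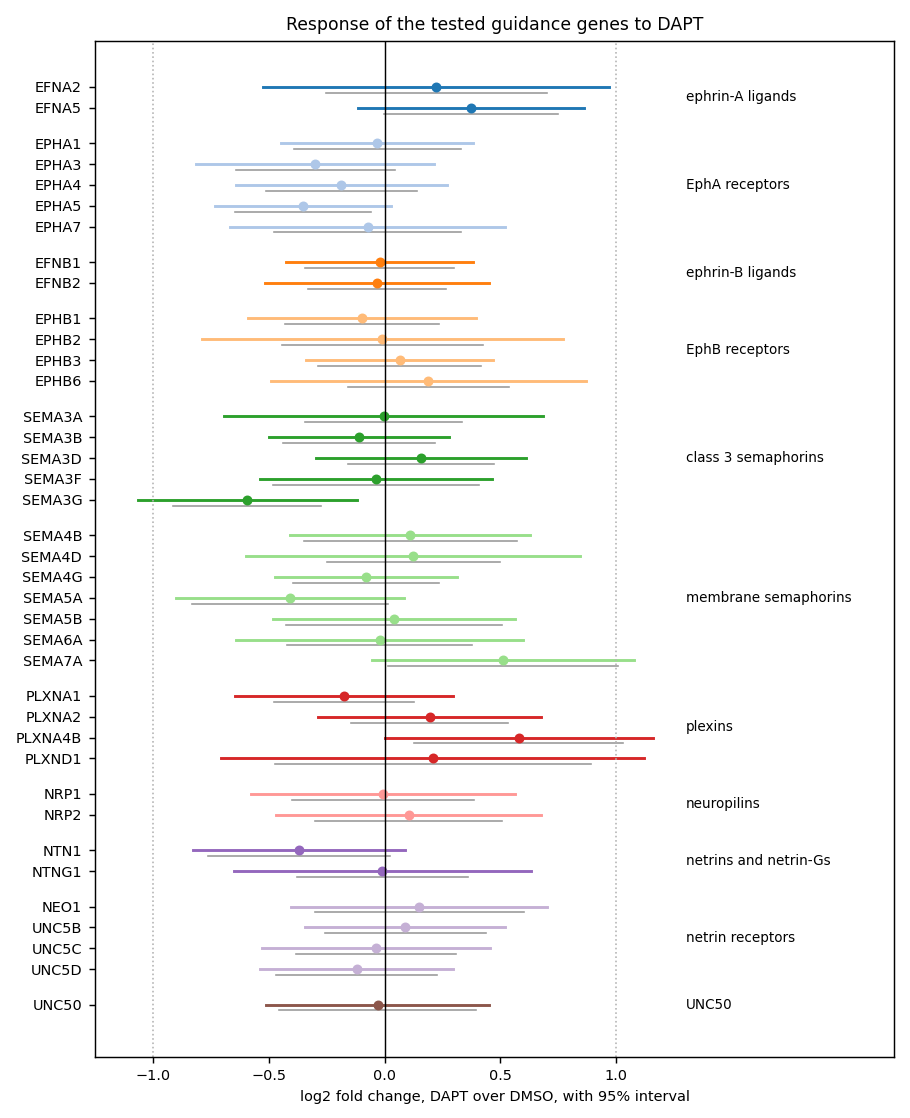
Log2 fold change (DAPT over DMSO, x axis) of the 38 tested guidance genes, grouped by family. Points are fold changes, coloured lines their 95% intervals, grey lines the intervals with slide as a block, and dotted lines a 2-fold difference; SEMA3G at -0.59 and PLXNA4B at 0.58 lie farthest from 0.

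The precision of the fold changes was read from their 95% intervals. These intervals are not adjusted for the number of probes, so they do not give the size of change that the adjusted test could miss. Their half-width was 0.38 to 0.91 on the log2 scale, with a median of 0.49. For 34 of the 38 genes (89.5%, against 83.5% of all genes) the interval lay wholly within a 2-fold difference in either direction, and for 36 (94.7%, against 94.8%) with slide as a block. The widest interval was that of PLXND1, -0.70 to 1.12, and the tightest was that of EPHA5, -0.73 to 0.028.

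Both tested ephrin-A ligands had higher mean values with DAPT and the 5 tested EphA receptors lower ones, but no member of either family passed the test and these directions were not kept under every setting. EFNA5, which in the chick repels retinal axons in the tectum, had 2.42, 2.64, 2.97 and 2.55 on DAPT arrays 1 to 4, against 1.77, 2.32, 2.59 and 2.41 on DMSO arrays 1 to 4. The 2 highest of the 8 values came from DAPT arrays, and only DMSO array 3 fell among the DAPT values. With the 75th percentile of the array subtracted in place of the median the groups did not overlap, which was so for 2.08% of all genes. The log2 fold change was 0.37 (SE 0.22, adjusted p = 1.0, limma), with the same direction on slide 1 (0.49) and slide 2 (0.26), and it was 0.21 without DMSO array 1. EFNA2, the other ligand with that role, had 0.63, 0.35, -0.41 and -0.05 with DAPT and -0.03, 0.64, -0.91 and -0.06 with DMSO. Its arrays were interleaved, and its log2 fold change of 0.22 (SE 0.34) was -0.11 with array weights and -0.051 without DMSO array 3.

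The EphA receptors lay below 0 and below the median of all probes, from -0.35 to -0.031 with a median of -0.19. With array weights 2 of the 5 lay above 0 and 1 above the median of all probes. Without DMSO array 4, 2 lay above 0 and 0 above that median. Without DAPT array 1, DAPT array 3 or DMSO array 3, 1 lay above 0 and 1 above that median. Without DAPT array 4 these counts were 1 and 2, and without DMSO array 2 they were 0 and 1. Without DAPT array 2 or DMSO array 1 all 5 lay below 0 and below that median. With normexp background correction, which moved the median of all probes to -0.32, 0 lay above 0 and 3 above that median, EPHA4 and EPHA5 among them. EPHA5, a receptor of retinal axons for ephrin-A ligands, had 0.13, 0.21, 0.38 and 0.28 on DAPT arrays and 0.32, 0.60, 0.71 and 0.77 on DMSO arrays. Only the lowest DMSO value, array 1, fell among the DAPT values, and DAPT arrays were lower on both slides (-0.29 and -0.41). The log2 fold change was -0.35 (SE 0.17, adjusted p = 1.0, limma; exact two-sided permutation p = 0.0571). EPHA3, which is graded across the chick retina, had 3.40, 3.32, 3.62 and 3.96 with DAPT and 3.44, 3.80, 3.94 and 4.31 with DMSO. In it each DAPT array was below the DMSO array of its number, although the labels do not say that such arrays belong together. Slide 2 was higher than slide 1 in both conditions. The log2 fold change of EPHA3 was -0.30 (SE 0.23), and -0.15 without DMSO array 4. EPHA4, a receptor for ephrins of both classes, had 0.17, -0.17, 0.20 and 0.14 with DAPT and 0.07, -0.08, 0.58 and 0.52 with DMSO. Its difference of -0.19 (SE 0.20) came from slide 2, where it was -0.37, while it was 0.0021 on slide 1, and the test of that difference between slides had an adjusted p of 1.0. EPHA7 and EPHA1 differed by -0.073 and -0.031.

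The B class had no common direction, and 0 of its 6 members passed the test. EFNB1 had 2.68 to 3.22 on DAPT arrays and 2.84 to 3.11 on DMSO arrays, and EFNB2, which also marks arteries, had -1.19 to -0.59 with DAPT and -1.23 to -0.57 with DMSO. Their log2 fold changes were -0.022 and -0.033. The EphB receptors EPHB1, EPHB2 and EPHB3, kinases that read ephrin-B ligands, differed by -0.097, -0.010 and 0.065. EPHB6, whose kinase domain is inactive in mammals, differed by 0.19 (SE 0.31). EPHB2 was a case where the arrays varied far more than the treatment: its values were 5.53, 5.89, 4.47 and 5.21 with DAPT and 5.66, 5.77, 4.56 and 5.15 with DMSO, so that the lowest value of each condition was on array 3.

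Among the 5 class 3 semaphorins, the secreted ligands of neuropilins and plexins, SEMA3G was the only guidance gene tested whose DAPT arrays all lay on one side of its DMSO arrays. It had 0.69, 0.51, 0.51 and 0.15 on DAPT arrays 1 to 4, against 1.28, 1.39, 0.78 and 0.78 on DMSO arrays 1 to 4. The gap between the highest DAPT and the lowest DMSO value was small, and with the 75th percentile of the array subtracted in place of the median the groups overlapped. SEMA3G is made mainly by vessel cells in mice, where it signals through NRP2. Its log2 fold change was -0.59 (SE 0.21, 95% interval -1.07 to -0.12), a level 0.663 times that in DMSO, with an adjusted p of 1.0 in limma, 0.214 with slide as a block and 0.175 with a block for the array number. The exact two-sided permutation p was 0.0286, which is the smallest that 4 arrays against 4 can give. Any gene whose conditions do not overlap has this value, so it adds nothing to the non-overlap for which SEMA3G was named. DAPT arrays were lower on both slides, by -0.74 and -0.45, and leaving out any 1 array gave -0.69 to -0.48. Non-overlap of the conditions was found for 1 of 38 guidance genes (2.63%) and 1.84% of all genes, with DAPT lower for 0.959% and higher for 0.882% of all genes. The second tested SEMA3G probe, which was above background on 6 of the 8 arrays, gave -0.44 (SE 0.36) with -1.003 on slide 1 and 0.12 on slide 2.

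The other class 3 semaphorins were close to 0. SEMA3A, the chick growth cone collapsing factor, had 4.62, 4.81, 5.90 and 5.41 with DAPT and 4.81, 4.89, 5.46 and 5.59 with DMSO. Its log2 fold change was -0.0044, with a 95% interval of -0.69 to 0.68, and all 4 arrays of slide 2 were above all 4 of slide 1. SEMA3B, SEMA3D and SEMA3F differed by -0.11, 0.16 and -0.036.

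The membrane-bound semaphorins held the second largest difference towards higher values and the second largest towards lower values. SEMA7A, a lipid-anchored semaphorin that promotes axon outgrowth in mice, had 0.11, 0.24, 0.06 and 0.44 on DAPT arrays, against -0.52, -0.42, -0.69 and 0.44 on DMSO arrays. The 4 DAPT values and DMSO array 4 were above 0 and the other 3 DMSO values were below. The log2 fold change was 0.51 (SE 0.25, adjusted p = 1.0, limma; exact two-sided permutation p = 0.143), and it was 0.76 without DMSO array 4 and no less than 0.38 without any other array. A second SEMA7A probe gave 0.48 (SE 0.23). SEMA5A, which carries thrombospondin repeats and can attract or repel axons, had -0.29, -0.91, -0.75 and -0.40 with DAPT, against -0.27, -0.47, 0.27 and -0.25 with DMSO. The 2 lowest values were on DAPT arrays and the highest was on DMSO array 3, and the log2 fold change was -0.41 (SE 0.22, adjusted p = 1.0, limma). It was -0.26 without DMSO array 3 and -0.012 with normexp background correction, above the median of all probes there. Its second probe gave -0.32. SEMA4B, SEMA4D, SEMA4G, SEMA5B and SEMA6A lay between -0.080 and 0.12.

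Of the receptors for semaphorins, PLXNA4B had the largest difference towards higher values of all 38 genes. PLXNA4B is listed as PLXNA4 in RefSeq and is a plexin that relays class 3 semaphorin signals in sensory and sympathetic axons. It had 1.77, 1.51, 2.24 and 1.39 on DAPT arrays 1 to 4, against 0.92, 0.73, 1.64 and 1.31 on DMSO arrays 1 to 4. Each DAPT array exceeded the DMSO array of its number, a pairing that the labels do not give, but DMSO array 3 was above DAPT arrays 2 and 4. The log2 fold change was 0.58 (SE 0.26, 95% interval 0.00078 to 1.16, unadjusted p = 0.0497 and adjusted p = 1.0, limma), or 1.49-fold, with 0.82 on slide 1 and 0.34 on slide 2. The exact two-sided permutation p was 0.114. PLXNA2, a receptor for class 6 and class 3 semaphorins, had 1.19, 0.76, 1.46 and 1.43 with DAPT and 0.71, 0.99, 1.05 and 1.33 with DMSO, a log2 fold change of 0.19 (SE 0.22) that was 0.091 without DMSO array 1. PLXND1, the vessel plexin that binds SEMA3E, had -1.01, -0.91, -2.68 and -0.99 with DAPT and -1.35, -1.20, -2.32 and -1.56 with DMSO. Array 3 was far below the others in both conditions, and the log2 fold change of 0.21 (SE 0.41) was 0.64 without DAPT array 3 and -0.030 without DMSO array 3. PLXNA1 differed by -0.17.

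The neuropilins showed no difference between the conditions beyond their spread. NRP1, the co-receptor for SEMA3A and for vascular endothelial growth factor, had 0.25, 0.27, -0.59 and 0.21 with DAPT and 0.37, 0.29, -0.37 and -0.12 with DMSO (log2 fold change -0.0058, SE 0.26). NRP2, the co-receptor for SEMA3F and SEMA3G, had 1.15, 0.77, 0.05 and 0.67 with DAPT and 0.60, 0.90, 0.17 and 0.55 with DMSO (log2 fold change 0.10, SE 0.26). In both genes array 3 was the lowest of its condition. A second NRP2 probe gave -0.59 (SE 0.49), with 0.24 on slide 1 and -1.41 on slide 2. On that probe DMSO array 4 was at 0.91 and the other DMSO arrays at -1.73 to -0.76. The NRP2 probes thus differed in direction over all arrays, but on slide 1 both were higher with DAPT (0.21 on the brightest).

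**Figure D2:**
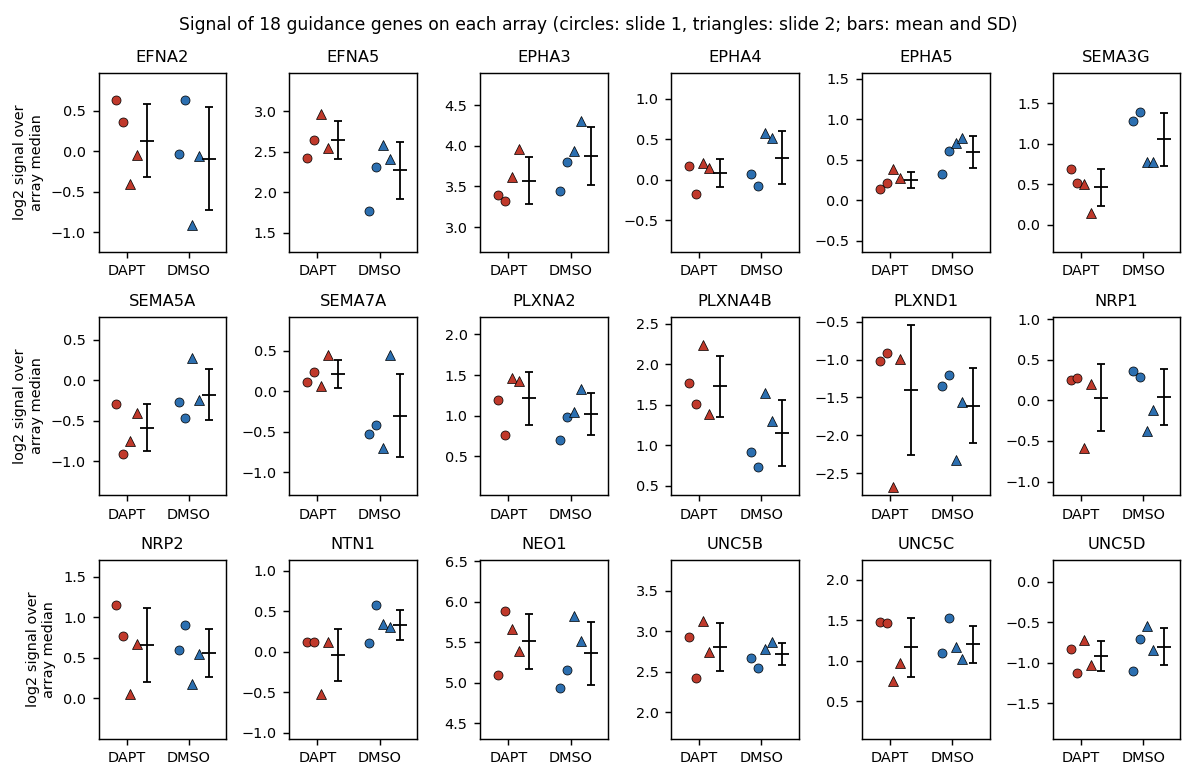
Log2 signal over the array median (y axis) of 18 guidance genes on each of the 4 DAPT and 4 DMSO arrays, with mean and SD. Circles are slide 1 and triangles slide 2; in SEMA3G all 4 DAPT points lie below all 4 DMSO points, and in the other 17 panels the conditions overlap.

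The netrin axis was represented by NTN1, NTNG1 and 4 receptors. NTN1 had 0.11, 0.12, -0.52 and 0.12 on DAPT arrays, against 0.11, 0.57, 0.34 and 0.31 on DMSO arrays. The DAPT arrays other than array 3 were at the level of the lowest DMSO array, and the log2 fold change was -0.37 (SE 0.21, adjusted p = 1.0, limma) with -0.22 on slide 1 and -0.52 on slide 2. It was -0.21 without DAPT array 3 and -0.17 with normexp background correction, above the median of all probes there. The name of this probe is uncertain. The transcript it was designed on is NTN3, another netrin, in the RefSeq gene table, and the same holds for 1 of the other 3 NTN1 probes. The brightest probe made for the netrin-1 transcript itself had -0.47, -0.26, -1.13 and -1.29 with DAPT and 0.48, 0.55, -1.29 and -0.49 with DMSO. On it DAPT was lower on slide 1 by -0.88 and on slide 2 by -0.31, with a log2 fold change of -0.59 (SE 0.42). All 4 probes with the symbol NTN1, which by these transcripts stand for 2 genes, had lower values with DAPT, from -0.59 to -0.29, and none passed the test. NTNG1, a lipid-anchored relative of the netrins, differed by -0.0089.

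The receptors of the netrins differed little. NEO1, neogenin, which also binds repulsive guidance molecules, had 5.10, 5.88, 5.67 and 5.40 with DAPT and 4.94, 5.16, 5.83 and 5.52 with DMSO (log2 fold change 0.15, SE 0.25, and 0.0084 without DMSO array 1). It was higher with DAPT on slide 1 by 0.44 and lower on slide 2 by -0.14, and the 5 NEO1 probes gave 0.15 to 0.40. UNC5B, a repellent netrin receptor that also serves vessels, had 2.92, 2.42, 3.12 and 2.75 with DAPT and 2.67, 2.55, 2.78 and 2.86 with DMSO (log2 fold change 0.089, SE 0.19). UNC5C had 1.48, 1.47, 0.75 and 0.97 with DAPT and 1.09, 1.52, 1.16 and 1.02 with DMSO (log2 fold change -0.036, SE 0.22), and UNC5D had -0.83, -1.12, -0.71 and -1.02 with DAPT and -1.10, -0.71, -0.55 and -0.85 with DMSO (log2 fold change -0.12, SE 0.19). In each of the 4 receptors the arrays of the conditions were interleaved. DCC was not analysed here.

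The 5 genes too dim to test were near background, and 2 of them were singled out after their values were seen because their conditions did not overlap, which was so for 1.32% of all 10124 genes too dim to test. SEMA6D, a transmembrane semaphorin, had -2.60, -2.94, -2.77 and -2.75 on DAPT arrays, against -3.63, -3.02, -3.01 and -3.51 on DMSO arrays. UNC5A, a netrin receptor, had -2.84, -2.88, -2.92 and -2.36 on DAPT arrays, against -2.97, -3.17, -3.55 and -3.55 on DMSO arrays. Each was well above background on 3 DAPT arrays and 1 DMSO array, so that most DMSO values are background readings and no fold is given. EPHA6, NTN4 and SEMA6B were well above background on 3 arrays of each condition and their conditions overlapped.

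These genes differed more between the slides than between the treatments. The median size of the difference between slide 2 and slide 1 was 0.39 on the log2 scale for the guidance genes and 0.40 for all genes, against median sizes of 0.11 for DAPT. The slide difference was the larger for 30 of 38 guidance genes (78.9%, against 81% of all genes). It had an adjusted p under 0.05 for 15 of them (limma, with condition in the fit; 39.5%, against 43% of all genes), with higher values on slide 2 for 6 (15.8%, against 25.1%) and lower values for 9 (23.7%, against 17.9%). The largest were EPHB2 (-0.87), SEMA4D (0.83), SEMA3A (0.81) and EPHB6 (0.79). Among the EphB receptors EPHB6 was higher on slide 2 and EPHB2 and EPHB1 (-0.44) had lower values there. Slide and scan coincided and cannot be told apart, and neither can the cultures that each slide held.

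The response to DAPT was compared between the slides. It had the same sign on both slides for 23 of 38 guidance genes (60.5%, against 53.5% of all genes). The interaction of condition and slide had an adjusted p under 0.05 for 0 guidance genes and 0 probes in all (limma), and an unadjusted p under 0.05 for 0 guidance genes and 2.51% of all genes. With the mean of each slide removed, the conditions did not overlap for SEMA3G and EPHA5, both lower with DAPT (5.26%, against 5.31% of all genes).

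**Figure D3:**
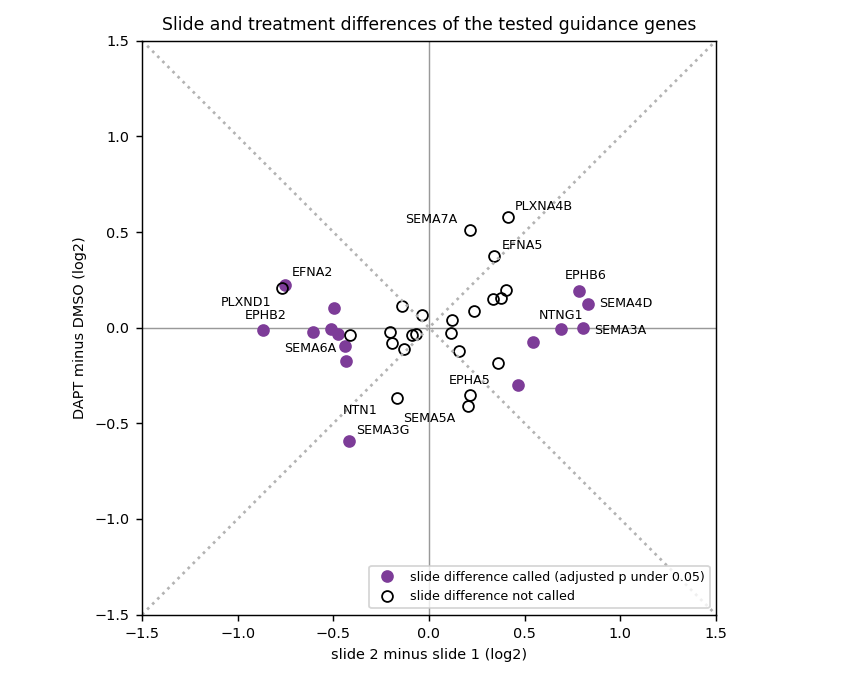
Difference between slides (slide 2 minus slide 1, x axis) and between treatments (DAPT minus DMSO, y axis) in log2 units for the 38 tested guidance genes. Filled points are the 15 genes with a slide difference at an adjusted p under 0.05, and dotted diagonals mark equal sizes; most points lie nearer the horizontal axis, with EPHB2 at -0.87 and SEMA4D at 0.83 farthest out.

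Where a gene had several tested probes, their direction could be set side by side. Of 29 such genes, 18 had all probes on one side of 0, 8 of them higher and 10 lower with DAPT, and 11 had probes on both sides. The share among all genes with several probes is not given here, so the count says nothing about a response to DAPT. NTN1 is counted here by symbol, although 2 of its probes were made for NTN3 transcripts. The 5 EPHA5 probes were all lower, from -0.51 to -0.14. The pairs of EPHA3, SEMA3G, SEMA5A and SEMA7A probes each gave one direction, while those of NRP2 gave -0.59 and 0.10. PLXNA4B was measured by 1 probe. Probes of a gene read the same RNA on the same arrays and are not replicates.

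**Figure D4:**
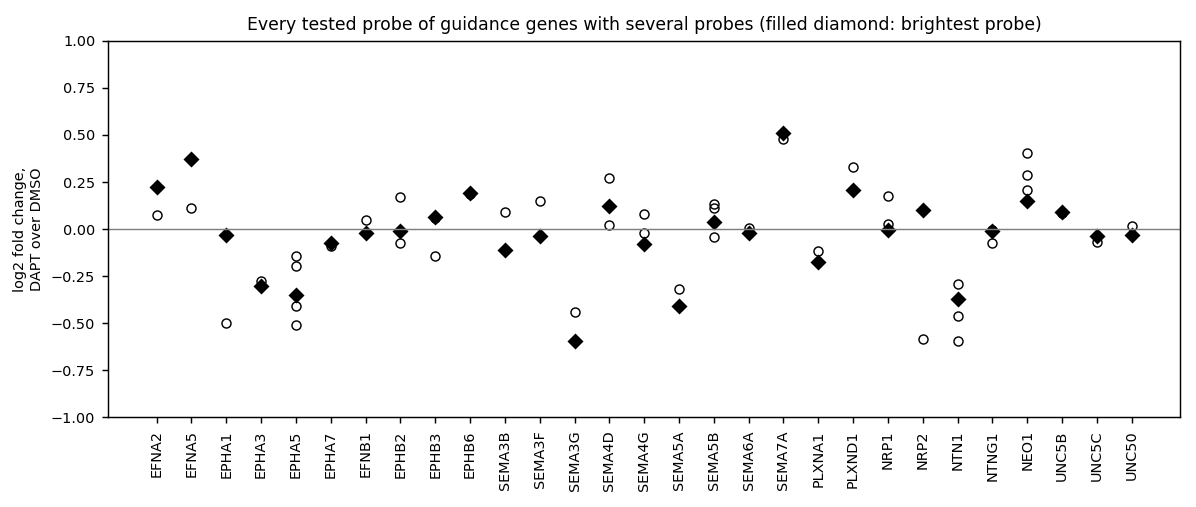
Log2 fold change (DAPT over DMSO, y axis) of every tested probe of the 29 guidance genes with more than 1 tested probe (x axis). Filled diamonds are the brightest probes, which stand for their genes; the EPHA5 probes and the probes with the symbol NTN1 all lie below 0 and the NEO1 and SEMA7A probes all above, while the NRP2 probes lie on both sides.

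The proteins that carry guidance signals into the cell, such as kinases, collapsin response mediators and co-receptors, were read from a list of 88 genes, of which 64 were found and 61 tested. An adjusted p under 0.05 was found for 0 of the 61 (limma), where 0.144% of all genes had one, and for 0 with slide as a block, against 0.492%. An unadjusted p under 0.05 was found for 2 (3.28%, against 2.55% of all genes). Their log2 fold changes had a median of 0.017 and ranged from -0.69 to 0.39. Of these 33 lay above 0 and 28 below, where 47.4% of all genes lay above 0. The lowest, CHL1, an adhesion molecule that associates with neuropilin-1 in mice, was named after its values were seen: it had -1.33, -1.02, -1.18 and -1.89 with DAPT, against -0.31, -0.73, -0.91 and -0.72 with DMSO, without overlap (adjusted p = 1.0). The conditions also did not overlap for VAV2, a signalling protein that acts downstream of Eph receptors in mice and was named after its values were seen: it had 2.46, 2.58, 2.68 and 2.39 with DAPT, against 2.23, 2.38, 2.26 and 2.33 with DMSO. Non-overlap was thus found for 2 of 61 mediators (3.28%, against 1.84% of all genes). The highest, DPYSL3, a collapsin response mediator, was also named after its values were seen and differed by 0.39. The 2 mediators with an unadjusted p under 0.05 were CHL1 and NGEF, the latter also named after its values were seen. NGEF differed by -0.54 (SE 0.22, unadjusted p = 0.034, limma), with -0.38 on slide 1 and -0.69 on slide 2, and its conditions overlapped.

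Markers of the cell types in the dissected domain were read in the same fit. Of 13 tested neuronal markers 4 rose with DAPT (limma, adjusted p under 0.05, which 0.108% of all genes reached in that direction), and 7 with slide as a block (0.359% of all genes). The 4 were NEFM, TAGLN3, NHLH1 and NHLH2, which the paper lists as upregulated on these same arrays, as it does STMN2 and GAP43. The count is therefore no independent support. Of the 13 markers 12 lay above 0 and 1, TUBB3, below (-0.17), and MAPT (0.13) and SYT1 (0.096) differed little. The mean level of the 13 was 3.48 to 3.69 on DAPT arrays and 2.21 to 2.74 on DMSO arrays. Of 12 progenitor markers 1, HES5, fell (0.0359% of all genes). HES5 is the Notch target read above, and no other progenitor marker had an unadjusted p under 0.05. Of these 12 markers 5 lay above 0 and 7 below. Of 9 endothelial markers 0 were called (2, LMO2 and TAL1, at an unadjusted p under 0.05, which 2.55% of all genes had). With slide as a block 1, LMO2, rose (0.359% of all genes rose). LMO2 and TAL1 differed by 1.05 and 0.67, against 0.088 for PECAM1. Of the 9 markers 8 lay above 0 and 1, CDH5, below (-0.41). The mean level of the 9 was 1.58 to 1.90 with DAPT and 1.27 to 1.83 with DMSO. Forebrain and eye field markers were present, with a mean level of 2.70 to 3.16 with DAPT and 2.67 to 3.27 with DMSO, and 0 of 11 were called (limma; 1 at an unadjusted p under 0.05). Blood, crest and head mesenchyme, placode and surface ectoderm, and midbrain and hindbrain markers had 0 calls among 6, 10, 10 and 3 genes (limma; 0, 0, 0 and 1 at an unadjusted p under 0.05). The mean level of blood markers differed most between arrays, from 0.32 to 5.70 with DAPT and from -0.23 to 5.82 with DMSO. Blood markers were lower on slide 2 in both conditions. HBG1, one of them, had 6.45 and 7.42 on the DAPT arrays of slide 1, against -0.36 and 3.74 on slide 2. With DMSO it had 7.07 and 7.66 on slide 1, against -1.24 and 0.78 on slide 2. Every found marker of these lists was well above background on at least 1 array. The part of these cell types in the guidance gene values was not tested.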

How the data were processed

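RNA from 4 pools of prosencephalon per condition had been hybridized to single-colour Agilent arrays. The authors deposited the image analysis output of each array (Feature Extraction 10.7.1.1), whose intensity values are background-corrected and not normalized between arrays. The authors also deposited a report of 34349 probes with their mean raw intensity and mean log2 signal per condition, and with their own comparison as a log2 fold change, a signed fold change score and an unsigned fold ratio. Gene symbols were taken from this report. Its condition means, its comparison columns and the authors' list of changed genes were not used. Every value column of the report was assigned to a condition or to the comparison, and 0 were left unassigned.

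Control spots and spots marked as outliers were left out, log2 signals were averaged per probe, and each array was centred on its 50th percentile, following the study's methods. The 31504 probes well above background on all 4 arrays of a condition were tested with limma 3.58.1 in R 4.3.3 (lmFit and eBayes, two-sided, no block, Benjamini-Hochberg over all tested probes). Intervals are at 95%. The exact permutation test used all 70 splits of the 8 arrays and took no account of slide. No member probe was saturated (0 of 92) or lost a spot (0). For arrays no depth can be given; their number and background limit precision. All 43 members had a gene ID in the RefSeq table (GRCg7b), 41 with the same symbol. No coordinates are given, since the array was designed on another assembly.

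Each array was taken as a pool. The labels do not give the array number a meaning beyond its file. Same-numbered arrays deviated together (correlation across probes 0.505 to 0.767), and so did differently numbered arrays that shared a slide (0.419 to 0.675). With slide means removed the correlation was 0.0489 on slide 1 and 0.356 on slide 2. Whether the array number pairs cultures is not known, and it was used as a block only beside the main result.

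Named were members called in any of 3 fits, those without overlap, the 6 highest and 6 lowest, and the netrin axis and neuropilins where tested. The members, gene lists and alternatives were chosen with earlier results of these data known. The fits were checked on simulated data, where the fit without a block recovered fewer of the changed probes than that with slide as a block and missed the recovery limit set beforehand. That limit was then kept for the slide-block fit only.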

Additional observations from a re-analysis of the deposited data

Results flagged for a closer look

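In 4 of 36 sets of 4 arrays, each a named gene in a condition, a single array lay far from the other 3. Chance sets apart about 1 in 20 such sets where they are independent, but these share their arrays and the genes were partly named for large differences, so that the count is not read against it. All 4 were DAPT arrays and 3 of them were array 3. PLXND1 was at -2.68 on DAPT array 3, against -1.01 to -0.91 on the other DAPT arrays. NRP1 was at -0.59 on DAPT array 3, against 0.21 to 0.27. NTN1 was at -0.52 on DAPT array 3, against 0.11 to 0.12. EPHA4 was at -0.17 on DAPT array 2, against 0.14 to 0.20. DMSO array 3, on the same slide, was the lowest DMSO array for PLXND1 (-2.32) and NRP1 (-0.37), but not for NTN1 (0.34).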

How the results depend on the processing

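The count of 0 guidance genes and 0 mediators called was the same under every alternative run. The counts over all probes (33 higher, 12 lower) moved to 103 and 39 with slide as a block, 125 and 70 with the array number as a replicate block, 64 and 21 with array weights, 7 and 6 without the filter on dim probes, 3 higher with normexp, and 5 to 20 higher and 6 to 20 lower without 1 array. The replicate block changed no call of a member. Normexp on the median spot signal, chosen after seeing the data because the mean signal column planned for it is absent, moved the median of all probes to -0.32 and of the members to -0.26, with 21 of 38 above that shift. Without 1 array the median of the members that then passed the filter was -0.034 to 0.026, and that of the same 38 was -0.050 to 0.029. The count of non-overlapping members, 1 of 38 (1.84% of all genes), was 2 with the 75th percentile (EFNA5 and EPHA5, not SEMA3G; 2.08%), 4 with normexp (SEMA3G, SEMA5B, UNC50 and PLXND1; 13%), 3 of 43 with no filter (SEMA3G, SEMA6D and UNC5A; 1.66%) and 2 with slide means removed (5.31%). Of 271 values of the 18 named genes under alternatives other than normexp, 254 kept their side of 0 and 17 did not. Of these values 0 passed the threshold, and 11 genes never changed side. The slide block, the replicate block and the run without a filter left each fold change as it was. So did the mean over probes for a gene with a single tested probe. Such values could not change side, so that the tally overstates stability. Under normexp 6 changed their side of 0: EFNA5 (-0.28), NEO1 (-0.60), NRP1 (0.032), PLXNA2 (-0.11), UNC5B (-0.41) and UNC5D (0.15). Relative to the median of all probes, EFNA5, NRP1 and PLXNA2 kept their side, and 8 changed it: NEO1, UNC5B, UNC5D, EPHA4, EPHA5, NTN1, SEMA5A and UNC5C. Sides of 0 also changed with array weights for EFNA2 (-0.11), EPHA4 (0.016) and NRP2 (-0.023); with the mean over probes for NRP1 (0.064) and NRP2 (-0.24); and with the 75th percentile for NRP1 (0.0032). Without 1 array the range was -0.051 to 0.47 for EFNA2, -0.14 to 0.20 for NRP1, -0.059 to 0.31 for NRP2, -0.030 to 0.64 for PLXND1, -0.017 to 0.22 for UNC5B and -0.14 to 0.10 for UNC5C. The causes were not tested. Dim probes limit UNC5A, SEMA6D, SEMA6B, EPHA6 and NTN4.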

Other observations

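Some probes without a matching symbol in the authors' report belong to guidance genes in the RefSeq gene table, and were left out of the guidance gene counts above. EPHA2, a further EphA receptor, had 3 tested probes with log2 fold changes of -0.17, -0.42 and -0.35 (adjusted p = 1.0 each, limma), of which the brightest had 2.26, 2.16, 1.95 and 1.80 on DAPT arrays and 2.35, 2.51, 1.74 and 2.23 on DMSO arrays. The SEMA3D-like gene SEMA3DL had 2 probes at -0.19 and 0.11. A further probe each of PLXNA1 and SEMA4B gave 0.032 and 0.085. The probes of SEMA3C and SEMA3E, the ligand of PLXND1, were not well above background on any array (0 of 8).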
